A study of Mus musculus with 18 samples.

Results

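The comparison set macrophages given LPS together with 5z7 against macrophages given LPS alone, in cells whose RIPK1 protein carries the T169A change. It used 6 of the 18 libraries of the series, chosen by their group labels: the 3 T169A LPS/5z7 libraries (numbered 12, 15 and 18 in the count table) and the 3 T169A LPS libraries (11, 14 and 17). It covered all 13068 genes with enough counts to be tested, of 56953 gene IDs in the table. Values of 3 libraries are always given in the order of these numbers, and those of the 3 unstimulated T169A libraries in the order 10, 13 and 16.

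The cells were bone marrow derived macrophages (BMDMs), grown for 7 days with L929 cell supernatant, which supplies M-CSF, the cytokine that drives macrophage growth. T169A cells came from knock-in mice in which a threonine of RIPK1 is replaced by alanine, and B6 cells from C57BL/6J mice. T169A LPS/5z7 and T169A LPS cells were treated for 2 hours, T169A unstimulated cells were not, and B6 cells were given the same 3 conditions, with 3 libraries in each group. The labels give no dose, no sex and no zygosity, and are silent on whether replicate libraries represent different mice. The p-values reflect the scatter within groups over all 18 libraries, not within the 6 compared alone, and this scatter may be technical. Of the 6 groups, the unstimulated B6 libraries agreed least (lowest r = 0.973 across genes), with library 7 furthest from the rest of its group. No library had 5z7 without LPS, so the comparison shows what 5z7 changed in cells that also had LPS.

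LPS, a component of the outer membrane of Gram-negative bacteria, is sensed on macrophages by TLR4 with its co-receptor CD14. Through the adaptor MyD88 the receptor activates the kinase TAK1, which in turn switches on the IkB kinases, and so NF-kB, and the MAP kinases p38 and JNK, which act on AP-1 and CREB family transcription factors. A second arm, through the adaptors TRAM and TRIF, leads to the transcription factor IRF3 and to type I interferon. RIPK1 is a kinase downstream of TNF receptors and TRIF that can lead to inflammatory signalling or to apoptosis and necroptosis. The labels do not spell out 5z7; the usual reading is (5Z)-7-oxozeaenol, which blocks TAK1.

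The 6 libraries held 17 to 29.5 M counts, and libraries 12 (28.5 M) and 11 (29.5 M) were the deepest in their groups. These 2 libraries also deviated together from their group means (r = 0.43 across genes), and results that rest on them are marked. A floor of 3 counts stood at 0.114 to 0.194 CPM, the counts as a rate on TMM-scaled library sizes. The macrophage markers of a list of 15 summed to 41641 to 45368 CPM in the LPS/5z7 libraries and 41570 to 48945 CPM in the LPS libraries; none was at 0, and 2 of the 15, Cd14 among them, were called lower with LPS/5z7. Of 9 lists of markers of other cell types, 1 gene was called, the stromal marker Pdgfrb, higher with LPS/5z7. The summed markers of mast cells and basophils lay apart between the groups, at 0.416 to 0.98 CPM with LPS/5z7 and 1.06 to 1.81 CPM with LPS, with 5 of 7 at 0 in all 6 libraries; neutrophil markers summed to 55.7 to 83.9 CPM with LPS/5z7 and 63.7 to 99.5 CPM with LPS. Their part in the results below was not tested. In bulk samples fewer cells of a type and less RNA per cell cannot be told apart. A gene count does not show the T169A change itself; Ripk1 had 80.5, 65.3 and 67.9 CPM in the LPS/5z7 libraries and 94.8, 76.7 and 67.6 CPM in the LPS libraries, against 98.3, 96.1 and 90.7 CPM in unstimulated cells, and was not called between LPS/5z7 and LPS (−0.16 ± 0.12 on the log2 scale, edgeR adjusted p = 0.49). Map3k7, which encodes TAK1, overlapped between the groups, at 73.7, 65.4 and 68.1 CPM with LPS/5z7 and 78.6, 71.2 and 66.7 CPM with LPS.

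With edgeR on TMM-scaled counts, adding 5z7 lowered and raised nearly equal numbers of genes, but the large changes were mainly decreases. A gene was called when edgeR's quasi-likelihood test gave a Benjamini-Hochberg adjusted p under 0.05 over all genes. With LPS/5z7, 853 of 13068 genes were lower (6.53%) and 850 higher (6.5%), 13% in all. At a change of at least 2-fold, 245 were lower (1.87%) and 140 higher (1.07%); 62 lower and 11 higher genes changed at least 4-fold, and 20 and 3 at least 8-fold. The 245 genes lowered at least 2-fold had a median level of 18.3 CPM over the 6 libraries, and the 140 raised at least 2-fold one of 1.72 CPM. Over all genes, the 3 LPS/5z7 libraries lay wholly below the 3 LPS libraries for 14.2% and wholly above for 15.3%; among the called genes this held for 838 of 853 and 824 of 850. Scaled by library size alone, the split was 530 lower and 2177 higher, as that scaling put the median gene at 0.17 (log2) in place of 0.02, so every direction here is one relative to the typical gene. Some settings gave more decreases: 1131 lower and 836 higher with DESeq2, and 948 and 730 with its size factors in edgeR. Others stayed nearly even: 678 lower and 703 higher without a filter, and 863 and 869 with a filter of 1 CPM. A replicate block of consecutive numbers gave 1174 lower and 1166 higher. A fit on the groups alone gave 816 lower and 562 higher. Leaving out LPS library 14 gave 1102 called genes, leaving out LPS/5z7 library 15 gave 1078, leaving out LPS/5z7 library 18 gave 1009, and the count was 1165 without libraries 11 and 12 together, a setting added after the data were seen.

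**Figure D1:**
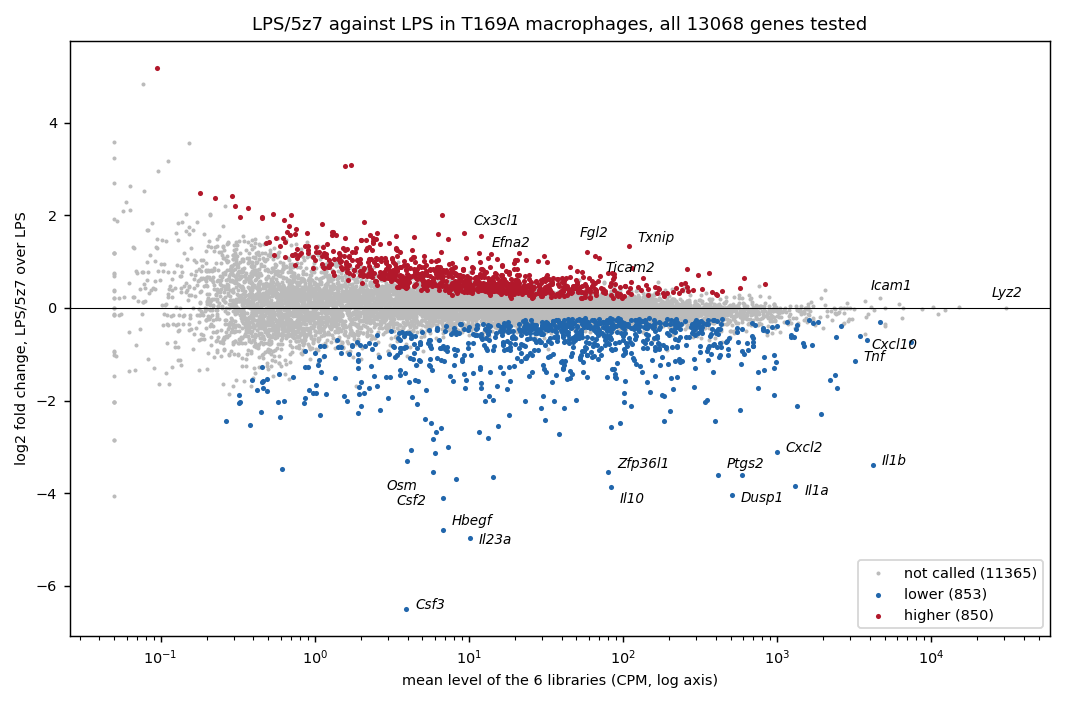
Log2 fold change of LPS/5z7 over LPS in T169A macrophages (vertical axis) against the mean level of the 6 libraries in CPM (log axis, levels under 0.05 drawn at 0.05), 1 point per gene, grey for genes not called. The lowest point is Csf3, whose fitted value rests on 1 or 2 reads per LPS/5z7 library, and the higher genes past 2-fold lie mostly at low levels.

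Cytokine ligands were among the most strongly lowered genes at high level. Il1a and Il1b encode the 2 forms of interleukin-1, the fever cytokine that acts through a shared receptor. Il1a had 210.3, 159 and 145 CPM in the LPS/5z7 libraries and 2387, 2551 and 2434 CPM in the LPS libraries, against 5.32, 2.04 and 2.12 CPM in unstimulated cells (log2 fold change of LPS/5z7 over LPS −3.84 ± 0.24, edgeR adjusted p = 2.01e-08). Il1b had 806, 691 and 674 CPM with LPS/5z7 and 6898, 7956 and 8084 CPM with LPS, against 42, 19.2 and 20.3 CPM in unstimulated cells (−3.4 ± 0.24, edgeR adjusted p = 5.37e-08). For both genes every LPS/5z7 library lay far below every LPS library and far above every unstimulated one. The receptor antagonist Il1rn, which blocks both ligands, fell with them (451, 293 and 301 CPM with LPS/5z7 and 1367, 1093 and 1008 CPM with LPS, −1.73 ± 0.15, edgeR adjusted p = 7.16e-07), and the alarmin Il33 fell at a low level (1.17, 0.461 and 0.184 CPM with LPS/5z7 and 3.47, 2.43 and 2 CPM with LPS). In Il33 and Il1rn the deepest library of each group, 12 and 11, was the highest of its group. Il18, another member of the family, stood at 45.5, 38.9 and 43 CPM with LPS/5z7 and 44, 43.5 and 45.3 CPM with LPS and its groups overlapped. In all, 4 of 7 IL-1 family genes tested fell and 0 rose.

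All 6 tested genes of the IL-6 and IL-10 families fell, with a median log2 fold change of −2.98 against 0.02 over all genes. Il10, the cytokine that restrains macrophage activation, had 14.1, 9.89 and 7.84 CPM with LPS/5z7 and 147, 159 and 163 CPM with LPS, against 1.4, 0.51 and 0.816 CPM in unstimulated cells (−3.86 ± 0.20, edgeR adjusted p = 1.61e-09). Lif, leukaemia inhibitory factor, had 1.51, 0.974 and 0.919 CPM with LPS/5z7 and 9.52, 16.7 and 19.6 CPM with LPS, against 0.66, 0.353 and 0.897 CPM in unstimulated cells (−3.69 ± 0.33). The LPS/5z7 libraries of Lif were close to the unstimulated ones, whereas those of Il10 stayed well above them. Osm, oncostatin M, behaved differently against unstimulated cells: it had 0.87, 0.974 and 0.919 CPM with LPS/5z7 and 9.52, 11.2 and 11.8 CPM with LPS, against 10.2, 11 and 11.4 CPM in unstimulated cells (−3.55 ± 0.17, edgeR adjusted p = 1.03e-09). Its LPS and unstimulated libraries overlapped and all 3 LPS/5z7 libraries lay far below both. Il6, the main acute phase cytokine, had 22.8, 8.66 and 10.8 CPM with LPS/5z7 and 73.8, 48.7 and 49 CPM with LPS, with 0.0412, 0.0785 and 0 CPM in unstimulated cells (−2.0 ± 0.29, edgeR adjusted p = 0.000169); libraries 12 and 11 were again the highest of their groups. Clcf1 (−1.49 ± 0.15) and Il19 (−2.4 ± 0.20) completed the list, and Il19 had no count in any unstimulated library.

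In the IL-12 family the subunits parted. Il23a, the p19 subunit of IL-23, had 0.492, 0.512 and 0.919 CPM with LPS/5z7 and 12.8, 20.1 and 26.2 CPM with LPS (−4.98 ± 0.31, edgeR adjusted p = 2.01e-08), with 10 to 15 raw counts per LPS/5z7 library. Among genes with a mean of at least 10 CPM in either group this was the largest fall. Il12b, the p40 subunit shared by IL-12 and IL-23, fell far less, with 154, 124 and 126 CPM with LPS/5z7 and 256, 231 and 247 CPM with LPS (−0.86 ± 0.15, edgeR adjusted p = 0.00117). The 3 other subunits tested, Il12a, Il27 and Ebi3, were not called. Ebi3 stood at 147, 178 and 181 CPM with LPS/5z7 and 126, 162 and 181 CPM with LPS, and the groups overlapped. Il12a had 45, 38 and 35 raw counts with LPS/5z7 and 28, 19 and 23 with LPS. Of the 5 subunits, 3 had LPS/5z7 libraries wholly below the LPS ones and 1 wholly above. DESeq2, a fit on the groups alone and a replicate block of consecutive numbers each called 3 of the 5 lower.

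Among TNF superfamily ligands, 4 of 12 fell and 1 rose. Tnf itself had 2005, 1978 and 1978 CPM with LPS/5z7 and 4029, 4431 and 4767 CPM with LPS, against 118, 62.9 and 68.7 CPM in unstimulated cells (−1.15 ± 0.19, edgeR adjusted p = 0.000668). The 3 LPS/5z7 libraries of Tnf agreed closely and every one lay far below the lowest LPS library. Tnfsf4, the OX40 ligand (−1.5 ± 0.16), Tnfsf9, the 4-1BB ligand (−1.35 ± 0.30), and Tnfsf14, known as LIGHT (−0.85 ± 0.27), fell as well. Tnfsf10, which encodes the death ligand TRAIL, rose (1.06 ± 0.33, edgeR adjusted p = 0.0418), but its groups overlapped, at 33.1, 15.6 and 13.4 CPM with LPS/5z7 and 16.3, 6.51 and 6.34 CPM with LPS. Libraries 12 and 11 were each well above the other 2 of their group, and Tnfsf10 was not called without library 12, 14 or 17. Tnfsf15 and Tnfsf12 were not called.

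**Figure D2:**
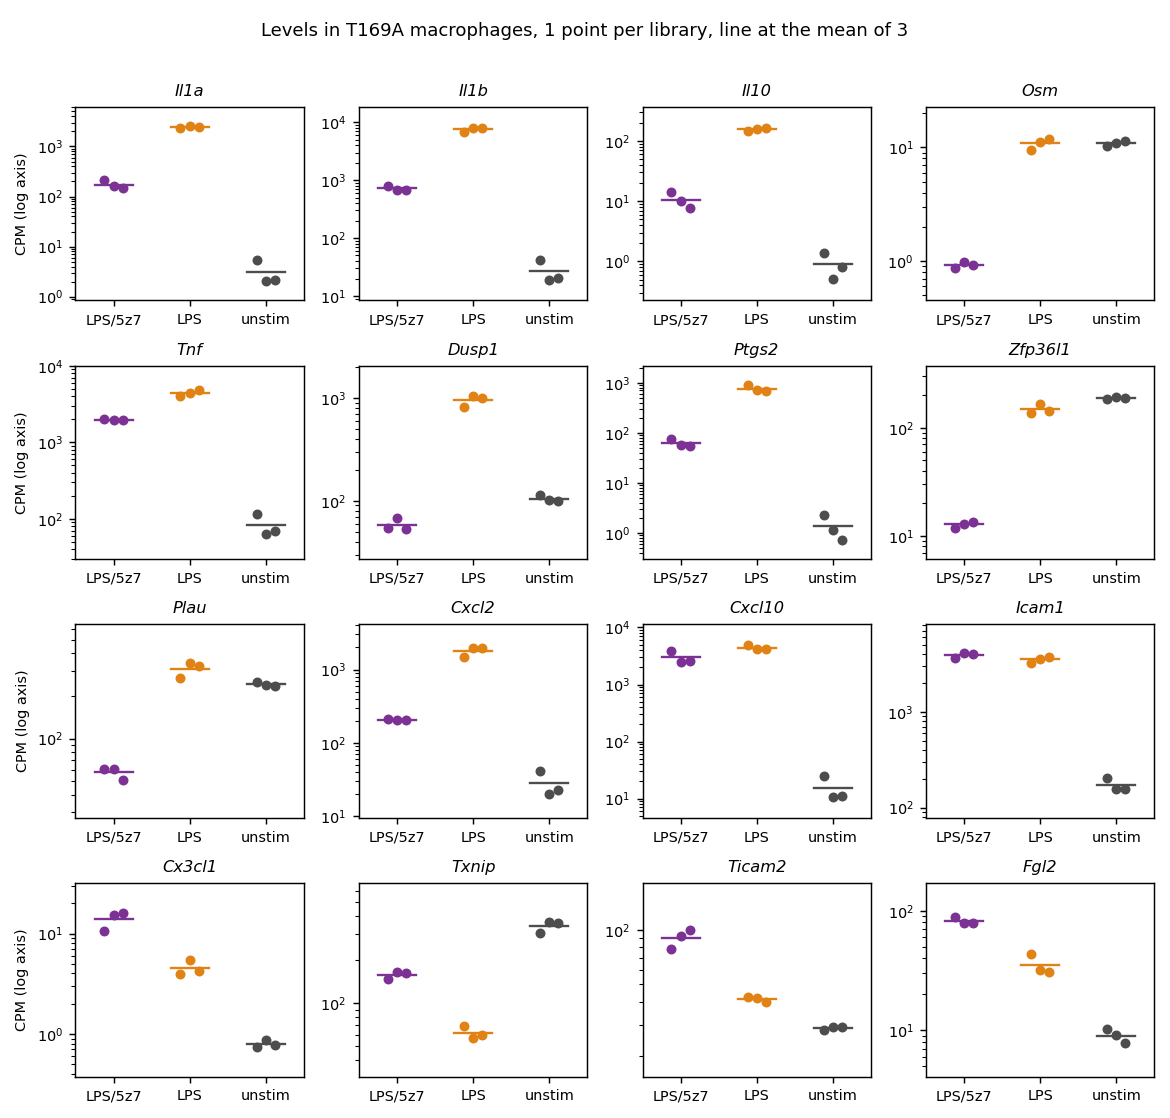
Levels of 16 genes in T169A macrophages in CPM (log axes), 1 point per library, with a line at the mean of 3; LPS/5z7, LPS and unstimulated from left to right in each panel. Osm, Zfp36l1 and Plau lie lower with LPS/5z7 than in unstimulated cells, and the bottom row holds genes higher with LPS/5z7 than with LPS. Icam1 overlaps its LPS libraries, and Cxcl10, though not called, lies below its LPS libraries.

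Growth factor genes fell in 10 of 13 cases and none rose (median −1.91). Csf2 encodes GM-CSF, which drives granulocyte and macrophage production; it had 0.378, 1.02 and 0.919 CPM with LPS/5z7 and 6.01, 15 and 17.7 CPM with LPS, and no count in any unstimulated library (−4.1 ± 0.45, edgeR adjusted p = 1.97e-05). Csf3, which encodes G-CSF, was at 0.0757, 0.102 and 0.0612 CPM with LPS/5z7, 1 or 2 reads per library and under the floor, and at 5.76, 8.04 and 9.57 CPM with LPS, so no fold change is given. Hbegf, a ligand of the EGF receptor, had 0.492, 0.512 and 0.367 CPM with LPS/5z7 and 10.8, 16.9 and 11.8 CPM with LPS, against 0.783, 0.825 and 0.938 CPM in unstimulated cells (−4.8 ± 0.33, edgeR adjusted p = 4.19e-08). All LPS/5z7 libraries of Hbegf were lower than all unstimulated ones. Pdgfb, a platelet-derived growth factor chain, had 104, 153 and 148 CPM with LPS/5z7 and 409, 585 and 664 CPM with LPS, against 151, 152 and 160 CPM in unstimulated cells (−2.04 ± 0.16), and its LPS/5z7 and unstimulated libraries overlapped. Gdf15 (−2.67 ± 0.22), the activin subunit Inhba (−2.49 ± 0.46), the vasoconstrictor endothelin Edn1 (−1.91 ± 0.16) and the angiogenic factor Vegfa (−0.87 ± 0.14) also fell. Spp1, which encodes osteopontin, and Igf1 were not called (−0.14 ± 0.09 and −0.07 ± 0.12).

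Chemokine genes fell in part. The neutrophil attractants Cxcl1, Cxcl2 and Cxcl3 fell, and Cxcl2 had 209, 208 and 208 CPM with LPS/5z7 and 1502, 1934 and 1934 CPM with LPS, against 41.3, 20.2 and 22.4 CPM in unstimulated cells (−3.1 ± 0.24, edgeR adjusted p = 1.5e-07). The fold change was −2.49 ± 0.15 for Cxcl3 and −1.76 ± 0.19 for Cxcl1. Cxcl10, which attracts T cells and is induced by interferon, had 3945, 2450 and 2591 CPM with LPS/5z7 and 4917, 4243 and 4135 CPM with LPS and was not called (−0.56 ± 0.24, edgeR adjusted p = 0.15). All 3 of its LPS/5z7 libraries lay below all 3 LPS libraries, but LPS/5z7 library 12 was well above the other 2. Cxcl11, another T cell attractant that interferon induces, annotated as a polymorphic pseudogene, fell: it had 45.4, 27.8 and 28.9 CPM with LPS/5z7 and 75.8, 69 and 68.2 CPM with LPS (−1.06 ± 0.16, edgeR adjusted p = 0.000242). Of 10 CXC chemokine genes 5 fell, among them Cxcl16 (−0.33 ± 0.10), and the platelet factor gene Pf4 overlapped (−0.17 ± 0.24). Among CC and CX3C chemokines 6 of 11 fell, namely the inflammatory chemokines Ccl3 (−2.28 ± 0.15) and Ccl4 (−1.74 ± 0.18), the monocyte attractants Ccl2 (−2.2 ± 0.22), Ccl7 (−2.0 ± 0.24) and Ccl12 (−1.69 ± 0.25), and Ccl9, a CCR1 ligand (−0.31 ± 0.09). Ccl5, a T cell attractant, had 1432, 1301 and 1383 CPM with LPS/5z7 and 1509, 1438 and 1564 CPM with LPS, which lay apart but was not called (edgeR adjusted p = 0.858). Cx3cl1, the membrane-bound chemokine fractalkine, was the only chemokine gene of the 21 tested in these 2 lists that rose: it had 10.7, 15.4 and 16.1 CPM with LPS/5z7 and 3.92, 5.49 and 4.27 CPM with LPS, against 0.742, 0.864 and 0.775 CPM in unstimulated cells (1.62 ± 0.17, edgeR adjusted p = 6.46e-06).

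Receptor genes changed as well. Of 32 cytokine, growth factor and chemokine receptor genes, 10 fell and 1 rose, the death receptor Fas, which was not called when any 1 of the 6 libraries was left out. Ccr1 had 92.1, 71.9 and 65.4 CPM with LPS/5z7 and 198, 185 and 163 CPM with LPS (−1.25 ± 0.13, edgeR adjusted p = 6.52e-06). The IL-1 receptor Il1r1 (−1.57 ± 0.17) and the IL-17 receptor chain Il17ra (−0.96 ± 0.12) fell, whereas Csf1r, the receptor for M-CSF, stayed at 2743, 2724 and 2712 CPM with LPS/5z7 and 2881, 2621 and 2627 CPM with LPS (0.01 ± 0.08). Of 29 other G protein-coupled receptor genes 9 fell (5 without library 15 or 18 or without libraries 11 and 12 together) and 3 rose (1 without library 18). Scaled by library size alone, 4 of these fell and 4 rose. The adenosine receptor Adora2b fell (−1.83 ± 0.19), as did the niacin receptor Hcar2 (−1.49 ± 0.09), and the sphingosine 1-phosphate receptors parted, with S1pr1 at −0.66 ± 0.09 and S1pr2 at 0.76 ± 0.10.

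The genes that MAP kinase signalling is known to switch on within minutes fell in most cases, where 6.53% of all genes did. Of 12 dual specificity phosphatase genes 9 fell, 0 rose and Dusp3, Dusp16 and Dusp22 were not called (median −1.14). Dusp1, the phosphatase that switches off p38 and JNK, had 54.1, 68.4 and 53.3 CPM with LPS/5z7 and 825, 1046 and 1004 CPM with LPS, against 114, 102 and 98.4 CPM in unstimulated cells (−4.03 ± 0.20, edgeR adjusted p = 1.57e-09). All 3 LPS/5z7 libraries of Dusp1 were below all 3 unstimulated ones. Dusp4 (−2.17 ± 0.26), Dusp5 (−1.6 ± 0.16), Dusp14 (−1.44 ± 0.19) and Dusp7 (−1.15 ± 0.16), which act mainly on MAP kinases as well, fell by smaller amounts. Of 13 other feedback genes 7 fell. Errfi1, an inhibitor of the EGF receptor, had 96.2, 95.3 and 76.5 CPM with LPS/5z7 and 961, 1225 and 1098 CPM with LPS, against 20.2, 14.5 and 14.1 CPM in unstimulated cells (−3.61 ± 0.19, edgeR adjusted p = 1.61e-09). Spry2, an inhibitor of RAS signalling, had 1.85, 1.44 and 2.33 CPM with LPS/5z7 and 9.28, 12.1 and 12.5 CPM with LPS, against 9.77, 10.3 and 11.7 CPM in unstimulated cells (−2.59 ± 0.20), so that its LPS libraries overlapped the unstimulated ones and its LPS/5z7 libraries did not.

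Of 17 AP-1 family genes 12 fell and 0 rose (median −0.82). Fos had 9.76, 6.51 and 6.43 CPM with LPS/5z7 and 20.7, 21.7 and 17.1 CPM with LPS, against 234, 230.3 and 239.5 CPM in unstimulated cells (−1.38 ± 0.15, edgeR adjusted p = 8.5e-06), and Jun had 11.3, 8.97 and 7.47 CPM with LPS/5z7 and 24.4, 22.4 and 20.6 CPM with LPS, against 124, 119.5 and 94.5 CPM (−1.26 ± 0.14). Both were already far below the unstimulated level with LPS alone at this time. Junb had 555, 547 and 564 CPM with LPS/5z7 and 1131, 1347 and 1621 CPM with LPS (−1.3 ± 0.17), Fosb fell further at a low level (−3.13 ± 0.34), and Maff, a small partner protein of these factors, fell as well (−2.56 ± 0.18). Jund and Atf4 were not called (−0.46 ± 0.21 and −0.26 ± 0.12). Of 31 EGR, IER and other immediate early genes 20 fell and 0 rose (median −1.03), led by Phlda1, with 2.42, 2.1 and 1.65 CPM with LPS/5z7 and 20.3, 28.4 and 30.7 CPM with LPS (−3.65 ± 0.26, edgeR adjusted p = 5.37e-08). The polo-like kinase Plk3 (−2.21 ± 0.22), the stress gene Gadd45a (−1.75 ± 0.17), Id2, an inhibitor of helix-loop-helix factors (−1.47 ± 0.10), and Csrnp1 (−1.17 ± 0.09) followed, while Gadd45b, a close relative of Gadd45a, overlapped at 674, 758 and 737 CPM with LPS/5z7 and 659.8, 763 and 842 CPM with LPS.

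Genes for proteins that bind cytokine mRNAs and shorten their life fell in part. Zfp36l1 had the smallest p of all genes: 11.9, 13 and 13.5 CPM with LPS/5z7 and 136, 166 and 142 CPM with LPS, against 183, 192 and 188 CPM in unstimulated cells (−3.54 ± 0.15, edgeR adjusted p = 5.09e-10). Its LPS libraries were a little below the unstimulated ones and its LPS/5z7 libraries far below both. Zfp36, which encodes tristetraprolin, had 404, 409 and 408 CPM with LPS/5z7 and 1407, 1546 and 1555 CPM with LPS, against 265, 263 and 269 CPM in unstimulated cells (−1.88 ± 0.15), and Zfp36l2 fell as well (−0.76 ± 0.14). The RNase gene Zc3h12a fell by less (−0.48 ± 0.13, edgeR adjusted p = 0.0235), Zc3h12c and the deadenylase scaffold Cnot1 were not called, and in all, 5 of 15 genes of the list fell and 0 rose.

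Promoter sequences are shown for 4 of the lowered genes and, for contrast, for Cxcl10 and Gbp5, which were not called; the 6 were chosen after their values were seen. Each is the 250 bases before the RefSeq transcription start on build GRCm38.p6, in the direction of the gene, with motif matches in capitals. The motifs searched on both strands were the AP-1 site TGANTCA, the cyclic AMP response element TGACGTCA, the NF-kB site (the kappa B consensus), the TATA box TATAAA and the serum response element (the CArG box). An AP-1 match cannot lie inside a cyclic AMP response match.
Dusp1: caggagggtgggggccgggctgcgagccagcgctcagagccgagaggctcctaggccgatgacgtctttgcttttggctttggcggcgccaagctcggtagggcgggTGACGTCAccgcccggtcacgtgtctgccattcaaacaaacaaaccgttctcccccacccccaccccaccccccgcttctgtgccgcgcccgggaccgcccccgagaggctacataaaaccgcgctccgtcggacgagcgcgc
Il1a: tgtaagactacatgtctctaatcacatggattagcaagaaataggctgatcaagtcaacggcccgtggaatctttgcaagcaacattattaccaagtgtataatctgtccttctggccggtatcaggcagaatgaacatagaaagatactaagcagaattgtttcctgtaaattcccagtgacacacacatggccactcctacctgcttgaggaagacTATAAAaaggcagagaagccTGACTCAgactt
Zfp36l1: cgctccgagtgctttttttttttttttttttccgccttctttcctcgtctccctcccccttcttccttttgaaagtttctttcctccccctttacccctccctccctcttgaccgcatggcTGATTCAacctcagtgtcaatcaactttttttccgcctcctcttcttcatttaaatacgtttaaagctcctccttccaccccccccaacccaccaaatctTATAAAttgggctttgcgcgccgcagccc
Cxcl2: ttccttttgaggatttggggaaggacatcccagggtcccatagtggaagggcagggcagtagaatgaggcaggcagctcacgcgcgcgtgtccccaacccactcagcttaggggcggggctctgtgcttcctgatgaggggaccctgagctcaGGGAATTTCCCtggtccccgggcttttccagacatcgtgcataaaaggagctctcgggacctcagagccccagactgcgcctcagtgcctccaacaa
Cxcl10: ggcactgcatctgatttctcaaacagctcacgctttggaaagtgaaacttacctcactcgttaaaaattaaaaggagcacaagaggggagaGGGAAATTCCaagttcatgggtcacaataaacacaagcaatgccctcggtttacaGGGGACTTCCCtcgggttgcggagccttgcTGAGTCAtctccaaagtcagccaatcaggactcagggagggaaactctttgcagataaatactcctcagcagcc
Gbp5: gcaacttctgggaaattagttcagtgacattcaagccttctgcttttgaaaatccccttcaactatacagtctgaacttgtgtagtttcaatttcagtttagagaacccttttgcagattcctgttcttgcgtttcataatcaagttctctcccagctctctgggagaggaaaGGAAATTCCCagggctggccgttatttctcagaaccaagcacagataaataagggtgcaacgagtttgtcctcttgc

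The windows are chr17:26508473-26508722 (minus strand) for Dusp1, chr2:129309973-129310222 (minus) for Il1a, chr12:80113014-80113263 (minus) for Zfp36l1, chr5:90903649-90903898 (plus) for Cxcl2, chr5:92348890-92349139 (minus) for Cxcl10 and chr3:142496684-142496933 (plus) for Gbp5. The capitals mark 1 cyclic AMP response element in Dusp1, 143 bases before the start. They mark 1 TATA box and 1 AP-1 site in Il1a, 32 and 12 bases before the start, and 1 AP-1 site and 1 TATA box in Zfp36l1, 129 and 29 bases before it. Cxcl2 holds 2 overlapping NF-kB matches that begin 97 and 96 bases before the start, and Gbp5 holds 1, 77 bases before it. Cxcl10 holds 3 NF-kB matches, 159, 104 and 103 bases before the start, the last 2 overlapping, and 1 AP-1 match, 74 bases before it. No CArG box was found in the 6 windows. Among these 6 picked promoters, an NF-kB match stood in Cxcl2, which fell, and in Cxcl10 and Gbp5, which were not called. An AP-1 match stood in Il1a and Zfp36l1, which fell, and in Cxcl10. Whether the motifs have a part in the changes was not tested. Over the 27025 promoters of the RefSeq table (300 bases each), 7.93% held the AP-1 letters, 1.88% the cyclic AMP response element, 8.18% the kappa B consensus, 14.2% the TATA box and 1.57% the CArG box. Of the 245 genes lowered at least 2-fold, 163 had a promoter in that table; because the others have no sequence there, no count over the set is given.

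NF-kB genes, which TAK1 also controls in textbook accounts, fell in part. Of 15 genes for NF-kB subunits and IkB proteins 3 fell and 12 were not called (median −0.27); DESeq2 called 6 lower. Nfkbia, the inhibitor IkB alpha and a direct NF-kB target, had 1898, 1873 and 1908 CPM with LPS/5z7 and 2607, 2945 and 3206 CPM with LPS, against 277, 179.6 and 174 CPM in unstimulated cells (−0.62 ± 0.15, edgeR adjusted p = 0.0105). The groups did not overlap, and the LPS/5z7 libraries remained many times above the unstimulated ones. Nfkbid (−0.9 ± 0.14) and Nfkb2 (−0.4 ± 0.10) fell, and Nfkb1 had an edgeR adjusted p of 0.055 (−0.31 ± 0.10). Among 24 ubiquitin editing and feedback genes 5 fell and 1 rose. Tnfaip3, the ubiquitin editing enzyme A20, had 1501, 1213 and 1094 CPM with LPS/5z7 and 3788, 3409 and 3207 CPM with LPS (−1.45 ± 0.23, edgeR adjusted p = 0.000451). Birc2, the ubiquitin ligase cIAP1, which acts on RIPK1, was the member that rose, at 124, 117 and 117 CPM with LPS/5z7 and 95, 86.3 and 77.3 CPM with LPS (0.47 ± 0.11, edgeR adjusted p = 0.00771). Icam1, an adhesion molecule gene under NF-kB control, had 3665, 4102 and 4048 CPM with LPS/5z7 and 3249, 3571 and 3764 CPM with LPS, against 206, 156 and 157 CPM in unstimulated cells, and its LPS/5z7 and LPS libraries overlapped (0.16 ± 0.13, edgeR adjusted p = 0.51).

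In the interferon arm the ligand gene fell, and how many antiviral genes were called depended on single libraries and on the fit. Ifnb1, the interferon beta gene, fell to 12.1, 7.63 and 9.37 CPM with LPS/5z7, against 58.7, 53.2 and 45.2 CPM with LPS (−2.42 ± 0.18, edgeR adjusted p = 7.09e-08), while 37 of 40 antiviral genes that interferon induces were not called, 3 fell (7.5%, near the 6.53% of all genes) and 0 rose (median −0.23). Rsad2, which encodes viperin, had 3479, 1781 and 1879 CPM with LPS/5z7 and 4232, 2600 and 2226 CPM with LPS, against 49.8, 32.9 and 30.1 CPM in unstimulated cells (−0.34 ± 0.25, edgeR adjusted p = 0.461). Libraries 12 and 11 stood above the others of their groups for Rsad2, and the count of antiviral genes called lower was 14 without LPS/5z7 library 12, 6 without libraries 11 and 12 together, 1 without LPS library 14, and 0 without LPS library 11, LPS/5z7 library 15 or LPS/5z7 library 18. With consecutive running numbers taken as a replicate block the count was also 14, but that pairing was not established. The 3 that fell were Mx2 (−0.45 ± 0.14), Ifi205 (−0.77 ± 0.22) and Ifi211 (−0.44 ± 0.13). The libraries of Mx2 and Ifi205 overlapped between the groups, and in a fit on the 2 groups alone none of the 3 was called. Ifi205 and Ifi211 belong to a family of near-identical copies, so their counts are uncertain. None of 15 guanylate binding protein and IRG GTPase genes was called by edgeR (median 0.08), and 2 were lower without library 12, with Gbp5 at 2347, 1934 and 1936 CPM with LPS/5z7 and 2165, 1674 and 1499 CPM with LPS. Irf1 overlapped (0.13 ± 0.11), and of 16 interferon, IRF and JAK-STAT genes 4 fell, among them Irf4 (−1.9 ± 0.32), Stat3 (−0.42 ± 0.12) and Jak2 (−0.43 ± 0.14), and 2 without library 11, 14, 15 or 18 or without libraries 11 and 12 together. The SOCS feedback inhibitors fell in 4 of 8 cases: Socs3 had 1165, 1124 and 1061 CPM with LPS/5z7 and 2999, 3313 and 3560 CPM with LPS (−1.56 ± 0.28), and Cish fell (−1.88 ± 0.19). Antigen presentation genes were called in 1 of 19 cases (5.26%, against 13% of all genes), Ciita, the master regulator of MHC class II genes, which rose (1.4 ± 0.31).

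**Figure D3:**
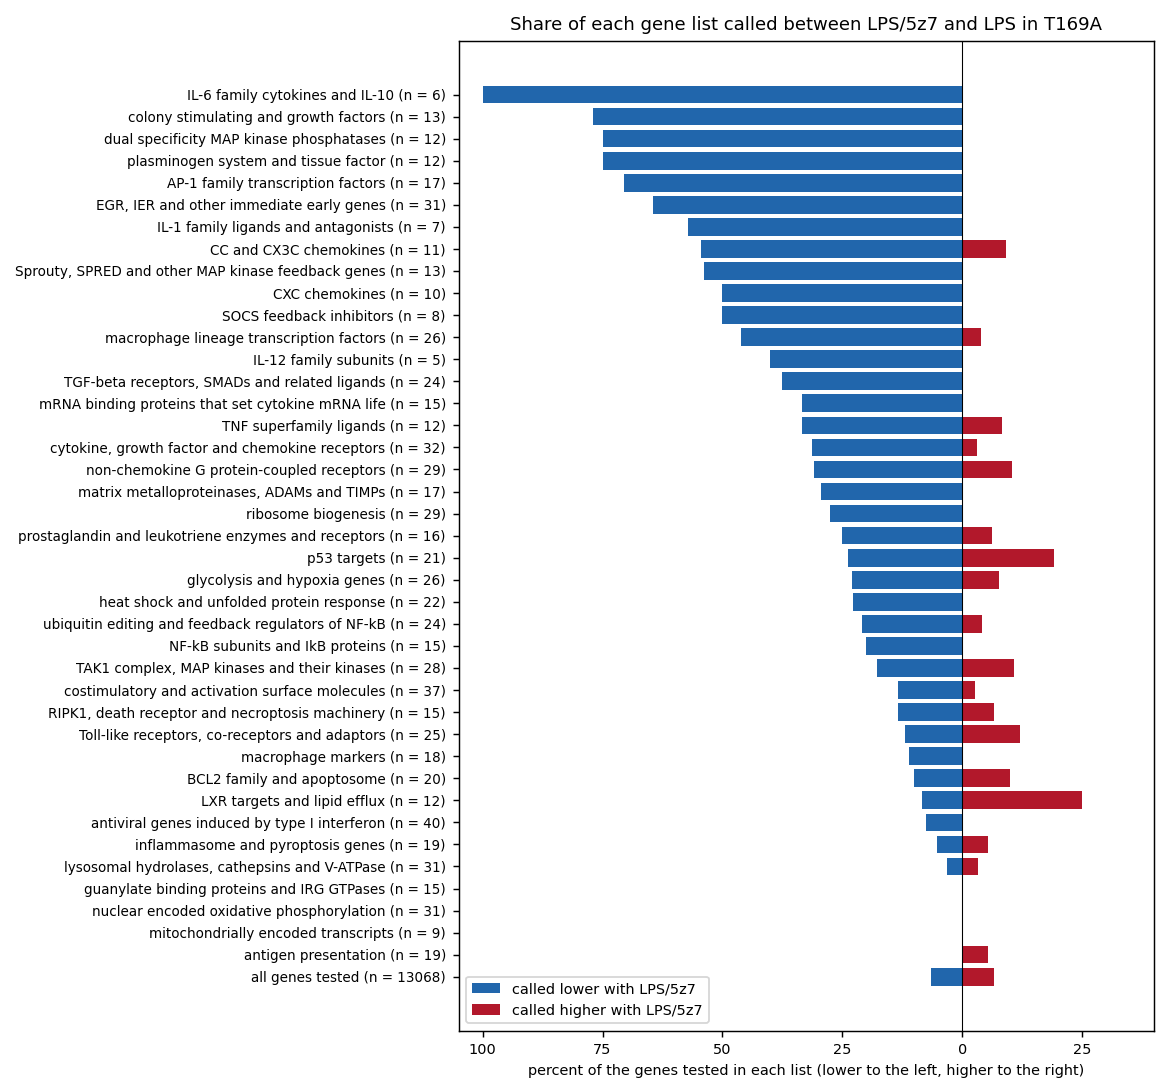
Percent of the tested genes of 40 lists called lower (left) or higher (right) by 5z7 in LPS-treated T169A macrophages, with the number tested in brackets and all genes in the last row. The lists of IL-6 family cytokines, growth factors and dual specificity phosphatases lie at the top, and guanylate binding proteins and oxidative phosphorylation have no called gene.

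In the receptor and kinase machinery upstream, single members moved in both directions. Of 25 Toll-like receptor and adaptor genes 3 fell and 3 rose (2 fell and 6 rose when scaled by library size alone). Cd14 had 2877, 2967 and 2968 CPM with LPS/5z7 and 3937, 4951 and 5333 CPM with LPS (−0.69 ± 0.12, edgeR adjusted p = 0.000898), and the adaptors Myd88 (−0.29 ± 0.09) and Ticam1, which encodes TRIF (−0.65 ± 0.09), fell. Ticam2, which encodes TRAM, the bridge between TLR4 and TRIF, rose: it had 78, 92.6 and 99.96 CPM with LPS/5z7 and 42.6, 41.9 and 40.1 CPM with LPS, against 28, 29.2 and 29.1 CPM in unstimulated cells (1.12 ± 0.09, edgeR adjusted p = 2.87e-07). Tlr9, a receptor for DNA, rose to 29.8, 31.8 and 27.4 CPM with LPS/5z7, against 17.5, 10.7 and 10.5 CPM with LPS, and so stood near the unstimulated 36, 34.6 and 29.2 CPM (1.18 ± 0.24). In the list of 28 TAK1 complex and MAP kinase genes 5 fell (3 without library 11 or 18 or without libraries 11 and 12 together) and 3 rose. Scaled by library size alone, 2 of this list fell and 5 rose. Tab1, the activating partner of TAK1, rose to 7.38, 8.66 and 8.15 CPM with LPS/5z7, against 4.58, 3.06 and 5.43 CPM with LPS and 28.3, 28.1 and 27.9 CPM in unstimulated cells (0.88 ± 0.14, edgeR adjusted p = 0.000511), and Map3k14, the kinase NIK of the alternative NF-kB pathway, rose (0.84 ± 0.11). Map3k8, the kinase upstream of ERK in LPS signalling (−0.48 ± 0.12), Map3k5, the stress kinase ASK1 (−0.59 ± 0.10) and the p38 activator Map2k3 (−0.36 ± 0.09) fell.

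Cell death genes were called in both directions, in shares to be set beside the 13% called of all genes. Of 15 genes for RIPK1, death receptors and necroptosis 2 fell and 1 rose; Cflar, which encodes the caspase-8 inhibitor cFLIP, had 1291, 1013 and 955 CPM with LPS/5z7 and 2316, 1837 and 1589 CPM with LPS, against 167, 145 and 129.9 CPM in unstimulated cells (−0.82 ± 0.22, edgeR adjusted p = 0.0191). The TNF receptor Tnfrsf1a fell (−0.24 ± 0.08, edgeR adjusted p = 0.0468) and the death receptor Fas rose (0.38 ± 0.12, edgeR adjusted p = 0.0496); none of these 3 was called without libraries 11 and 12 together, without LPS library 11, or without LPS/5z7 library 15 or 18. Without library 14 or 17, 1 gene of this list fell and none rose, and Fas was not called without library 12 either. Mlkl, the pore-forming effector of necroptosis (−0.14 ± 0.16), Ripk3 (−0.02 ± 0.13) and Casp8 (−0.1 ± 0.08) overlapped between the groups. Of 20 BCL2 family and apoptosome genes 2 fell, the survival gene Mcl1, with 1093, 966 and 959 CPM with LPS/5z7 and 1619, 1548 and 1513 CPM with LPS, against 1109, 937 and 924 CPM in unstimulated cells (−0.63 ± 0.10), and the pro-death gene Pmaip1 (−1.09 ± 0.24), and 2 rose, Bmf, another pro-death gene (1.07 ± 0.20), and the initiator caspase Casp9 (0.51 ± 0.10). Scaled by library size alone, 2 of these 20 fell and 5 rose. Nlrp3, the inflammasome sensor, had 425, 414 and 404 CPM with LPS/5z7 and 1135, 1078 and 1039 CPM with LPS (−1.39 ± 0.24, edgeR adjusted p = 0.000746) and was the member that fell of 19 inflammasome and pyroptosis genes; Casp4 stayed at 317, 259 and 261 CPM with LPS/5z7 and 311, 264 and 258 CPM with LPS.

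Secreted effectors fell in several families. Ptgs2, the inducible cyclooxygenase, had 74.3, 58.1 and 54.7 CPM with LPS/5z7 and 907, 710 and 675 CPM with LPS, against 2.35, 1.18 and 0.734 CPM in unstimulated cells (−3.61 ± 0.25, edgeR adjusted p = 4.19e-08), and the synthase that acts after it, Ptges, fell as well (−0.75 ± 0.10). Of 12 plasminogen system and coagulation genes 9 fell and 0 rose (median −1.08). Plau, the plasminogen activator urokinase, had 61.3, 60.9 and 51.3 CPM with LPS/5z7 and 268, 344 and 325 CPM with LPS, against 249, 241 and 235 CPM in unstimulated cells (−2.43 ± 0.13, edgeR adjusted p = 1.61e-09), and all its LPS/5z7 libraries were below the unstimulated ones. Its receptor Plaur (−2.44 ± 0.12), its inhibitor Serpinb2 (−2.72 ± 0.19), and F3, which encodes tissue factor, the trigger of coagulation (−3.01 ± 0.22), fell too. Mmp13, a collagenase, had 674, 424 and 407 CPM with LPS/5z7 and 2462, 2134 and 1953 CPM with LPS (−2.12 ± 0.19), and 5 of 17 metalloproteinase and inhibitor genes fell in all (2 without libraries 11 and 12 together, and 3 without library 14 or 15). Nos2, the inducible nitric oxide synthase, had 80.4, 67.1 and 74.4 CPM with LPS/5z7 and 109.5, 89.96 and 88.8 CPM with LPS and was not called (−0.38 ± 0.15, edgeR adjusted p = 0.11), nor was Acod1, which makes itaconate (−0.36 ± 0.31), whereas Gch1, which makes a cofactor of nitric oxide synthase, fell (−0.74 ± 0.11). In a fit on the 2 groups alone, Acod1 was called lower (−0.37 ± 0.08, edgeR adjusted p = 0.0182).

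Transcription factors of the macrophage lineage fell in 12 of 26 cases and 1 rose. Cebpb had 43.7, 45.1 and 56.2 CPM with LPS/5z7 and 106, 120.2 and 138 CPM with LPS (−1.33 ± 0.23, edgeR adjusted p = 0.000822), Ets2 (−1.5 ± 0.17) and Nfil3 (−1.42 ± 0.23) fell, while Spi1, which encodes the lineage factor PU.1, overlapped (−0.05 ± 0.12). Nr1h3, the sterol-sensing receptor LXR alpha, was the member that rose (0.62 ± 0.14). In a list of 12 genes of LXR, its targets and lipid efflux 8 were not called, and the median was near 0. Besides Nr1h3, the sterol exporter Abcg1 (0.55 ± 0.12) and Mylip (0.69 ± 0.12) rose, and Ch25h, an interferon-responsive sterol hydroxylase, fell to 24, 16.9 and 18.2 CPM with LPS/5z7, against 67.1, 77.1 and 93 CPM with LPS (−2.0 ± 0.17). In glucose metabolism 6 of 26 genes fell and 2 rose: the glucose transporter Slc2a1 (−1.32 ± 0.09), Hk2 (−1.1 ± 0.12) and Pfkfb3 (−1.02 ± 0.15) fell, while the glycolytic enzymes Aldoa, Gapdh and Pkm were not called. Of 21 p53 target genes 5 fell and 4 rose (2 without library 11, 14, 15 or 18); Mdm2, the inhibitor of p53, had 158, 129.8 and 118 CPM with LPS/5z7 and 464, 455 and 404 CPM with LPS, against 223, 203 and 207 CPM in unstimulated cells (−1.7 ± 0.12, edgeR adjusted p = 5.33e-08), and Sesn1 rose (0.97 ± 0.18). Of 29 ribosome biogenesis genes 8 fell, led by Myc (−1.9 ± 0.26) and Nop58 (−0.58 ± 0.08), but 2 fell when scaled by library size alone (2 without library 14 or 17, and 4 without library 12 or 18, and 5 without library 15). None of 31 oxidative phosphorylation and 9 mitochondrially encoded genes was called by edgeR (DESeq2 called 2 of the oxidative phosphorylation genes lower). The lysozyme Lyz2, with 28645, 31235 and 31830 CPM with LPS/5z7 and 27562, 31259 and 33122 CPM with LPS, overlapped between the groups, as did Actb.

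The other lists gave smaller or mixed counts, to be set beside the 6.53% of all genes called lower and the 6.5% called higher. Of 16 prostaglandin and leukotriene genes 4 fell and 1 rose (0 without library 11, 14, 15, 17 or 18 or without libraries 11 and 12 together), and of 12 arginine and nitric oxide genes 4 fell (2 without library 11, 15 or 18). Of 15 NR4A, SIK and CREB pathway genes 5 fell (2 without library 14, 15 or 18 or without libraries 11 and 12 together, and 3 without library 11) and 1 rose; scaled by library size alone, 2 fell and 3 rose. Of 24 TGF-beta and BMP pathway genes 9 fell (5 without library 14 or 15). Of 11 Krüppel-like factor genes 4 fell (2 without library 18). Of 22 unfolded protein and heat shock genes 5 fell (2 without library 18 or without libraries 11 and 12 together, and 3 without library 11, 15 or 17), and 1 when scaled by library size alone. Of 22 oxidative stress genes 3 fell (1 without library 11, 14, 15, 17 or 18 or without libraries 11 and 12 together) and 1 rose (2 without library 17), and of 22 amino acid response genes 3 fell. In the lists of costimulatory, solute carrier, cholesterol synthesis, complement, SRF target, cell cycle, proteasome and lysosome genes at most 5 fell and at most 2 rose. The share called in either direction ran from 3.85% of 26 proteasome and 6.45% of 31 lysosome genes to 23.1% of 13 SRF targets, against 13% of all genes. In each of these 8 lists the count in at least 1 direction moved by more than 1.5 times without library 18, and in some of them without each of the other 5 libraries.

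The higher genes set out next were mainly those that rose most at 10 CPM or more. Genes under 10 CPM rose further, by up to 5.18 on the log2 scale. Icosl and C3 rose less and were taken from their gene lists. Most of the genes set out fell into 2 kinds when set beside unstimulated cells. In the first, LPS alone had already raised the gene. Efna2, the cell surface ligand ephrin A2, had 12.9, 19.3 and 21.4 CPM with LPS/5z7 and 5.23, 6.64 and 6.4 CPM with LPS, against 0.783, 0.903 and 0.979 CPM in unstimulated cells (1.56 ± 0.17, edgeR adjusted p = 6.55e-06). Icam5, an adhesion molecule, had 8.1, 11.3 and 13 CPM with LPS/5z7 and 2.78, 4.6 and 4.2 CPM with LPS, against 0.454, 0.314 and 0.53 CPM (1.5 ± 0.19). Fgl2, a fibrinogen-like protein, had 88.7, 78.7 and 78.4 CPM with LPS/5z7 and 43.4, 31.7 and 30.7 CPM with LPS, against 10.2, 9.11 and 7.87 CPM (1.21 ± 0.18). Fscn1, which bundles actin in cell protrusions (1.12 ± 0.20), Icosl, a T cell costimulatory ligand (0.71 ± 0.16), and the complement gene C3 (0.52 ± 0.14) were of the same kind, as were Cx3cl1 and Ticam2, and in all of them the libraries of LPS/5z7, LPS and unstimulated cells formed 3 separate steps.

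In the second kind, LPS alone had lowered the gene and the LPS/5z7 level lay between. Txnip, an arrestin that limits glucose uptake, had 147, 163 and 161 CPM with LPS/5z7 and 68.7, 57.4 and 59.6 CPM with LPS, against 307, 364 and 359.6 CPM in unstimulated cells (1.34 ± 0.10, edgeR adjusted p = 9.55e-08). Sik1, a salt-inducible kinase that restrains CREB coactivators, had 7.83, 9.94 and 10.7 CPM with LPS/5z7 and 3.23, 3.19 and 2.85 CPM with LPS, against 23.2, 21.7 and 20.7 CPM (1.6 ± 0.18). Tsc22d3, known as the glucocorticoid-induced leucine zipper, had 13.8, 20.6 and 19.7 CPM with LPS/5z7 and 6.33, 9.45 and 10.1 CPM with LPS, against 75.4, 87.3 and 88.8 CPM (1.08 ± 0.19). In these 3 genes no library of any group reached another group. AI480526, a gene with no role assigned here, was of this kind (1.19 ± 0.23). Slc30a1, a zinc exporter (1.08 ± 0.14), and Pde4a, a phosphodiesterase that degrades cyclic AMP (1.16 ± 0.15), belonged to neither kind. With LPS/5z7 they stood at or just above the unstimulated level.

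A further group among the higher genes was noticed after the values were seen: the genes named Zfp with a number, most of which encode zinc finger transcription factors, many of them repressors. Of 294 tested, 82 were called higher (27.9%, against 6.5% of all genes), 9 lower and 203 neither, with a median log2 fold change of 0.35. They had low levels, with a median of 5.99 CPM against 16.8 CPM over all genes, and 28 of the 82 changed at least 2-fold. Among the higher ones, Zfp952 had 14.9, 16.2 and 15.4 CPM with LPS/5z7 and 9.85, 8.49 and 7.69 CPM with LPS, against 9.44, 8.32 and 9.95 CPM in unstimulated cells (0.83 ± 0.11, edgeR adjusted p = 5.93e-05), and Zfp60 had 5.45, 6.56 and 5.82 CPM with LPS/5z7 and 2.57, 3 and 3.43 CPM with LPS, against 10.2, 9.27 and 10.7 CPM (1.0 ± 0.13). The LPS/5z7 libraries of Zfp60 lay between the LPS and the unstimulated ones, whereas those of Zfp952 were above both, which overlapped. Zfp36 and Zfp703 (−1.17 ± 0.10) were among the 9 lower; Zfp36 is the mRNA decay gene described above. The median of the group against unstimulated cells was −0.39 with LPS/5z7 and −0.77 with LPS. In B6 cells, 81 of the 294 were called higher with LPS/5z7 than with LPS (27.6%, against 7.03% of all genes) and 8 lower, with a median of 0.38. Without libraries 14 or 18 the T169A count was 52 and 53, and it was 65 without libraries 11 and 12.

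A list free of the T169A libraries was made from B6 cells, where LPS against unstimulated cells raised 1894 genes at least 2-fold (14.5% of 13068) and lowered 2082 (15.9%). It rests in part on unstimulated B6 library 7, which stood apart from its group, and its effect on the list was not tested. Of the 284 genes that LPS raised more than 16-fold in B6, 117 were called lower after 5z7 in T169A (41.2%, against 6.53% of all genes) and 11 higher, with a median of −0.48. Among the 630 genes raised 4- to 16-fold 148 were lower (23.5%), and among the 980 raised 2- to 4-fold 206 were (21.0%). Of all 1894, 1365 were not called in T169A. Among the 2082 genes lowered in B6 were 396 called higher after 5z7 in T169A (19.0%, against 6.5% of all genes) and 51 called lower. Among the 9092 genes in neither list 331 were lower (3.64%) and 396 higher (4.36%).

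**Figure D4:**
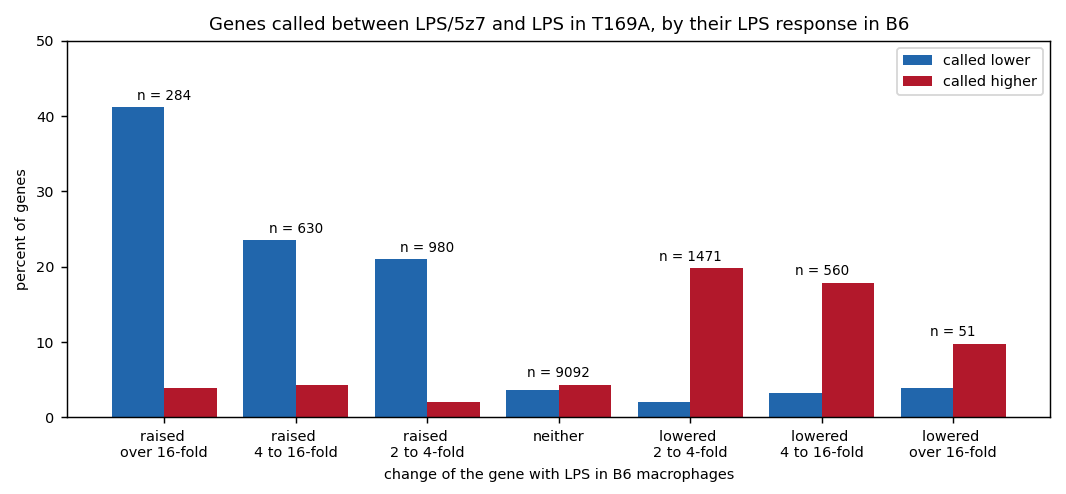
Percent of genes called lower or higher in LPS/5z7 over LPS in T169A macrophages (vertical axis), for classes of genes by how LPS changed them in B6 macrophages, with the number of genes above each pair of bars. The share called lower was 41.2% among genes raised over 16-fold and 3.64% among genes in neither list.

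Set side by side, the T169A values against unstimulated cells showed where 5z7 left each gene; the comparisons share libraries, so only the values are given. Against unstimulated cells 7269 genes were called with LPS/5z7 (55.6%), of which 3678 were higher (28.1%) and 3591 lower (27.5%), and 8085 with LPS (61.9%), of which 3965 were higher (30.3%) and 4120 lower (31.5%). Scaled by library size alone, these splits were 1975 higher and 6999 lower with LPS/5z7, and 1934 higher and 8106 lower with LPS. For several genes LPS alone left a level near that of unstimulated cells and LPS/5z7 one far below it. Zfp36l1 stood at −3.88 ± 0.16 with LPS/5z7 (edgeR adjusted p = 1.28e-12) and −0.34 ± 0.14 with LPS, both against unstimulated cells on the log2 scale. Osm stood at −3.56 ± 0.17 with LPS/5z7 and −0.01 ± 0.12 with LPS, and Spry2 at −2.51 ± 0.20 with LPS/5z7 and 0.08 ± 0.17 with LPS. Plau stood at −2.06 ± 0.13 with LPS/5z7 and 0.37 ± 0.12 with LPS, Myc at −1.95 ± 0.26 and −0.05 ± 0.24, and Gadd45a at −1.78 ± 0.17 and −0.03 ± 0.16, in the same order. These 6 genes were thus below the unstimulated level with LPS/5z7 in all 3 libraries, whereas their LPS values were within 0.37 of it on the log2 scale.

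Other genes that LPS had raised were near the unstimulated level with LPS/5z7. Phlda1 stood at 0.04 ± 0.30 with LPS/5z7 (edgeR adjusted p = 0.924) and 3.69 ± 0.25 with LPS against unstimulated cells, Bach1, a repressor of haem and redox genes, at −0.05 ± 0.25 with LPS/5z7 and 1.1 ± 0.25 with LPS, and Mcl1 at 0.02 ± 0.10 with LPS/5z7 and 0.66 ± 0.10 with LPS. Another kind kept most of its rise: Cxcl10 stood at 7.59 ± 0.32 with LPS/5z7 and 8.16 ± 0.33 with LPS, Ccl5 at 8.42 ± 0.41 with LPS/5z7 and 8.55 ± 0.41 with LPS, and Icam1 at 4.51 ± 0.15 with LPS/5z7 and 4.35 ± 0.14 with LPS. By list, the median against unstimulated cells was 0.03 with LPS/5z7 and 1.84 with LPS for growth factors, −0.7 and 0.78 for dual specificity phosphatases, 2.27 and 2.64 for NF-kB subunits, and 3.02 and 3.15 for antiviral genes.

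The same comparison in B6 cells shares no library with the T169A one. There, LPS/5z7 against LPS called 919 genes higher (7.03%) and 887 lower (6.79%). Of the 853 genes lower in T169A, 721 were called lower in B6, which is 84.5% of the T169A list and 81.3% of the B6 list, and none was called higher. Of the 850 genes higher in T169A, 598 were called higher in B6 (70.4% of the T169A and 65.1% of the B6 list), and none lower. Among genes changed at least 2-fold, 204 were lower in both, 83.3% of the T169A list and 87.2% of the 234 in B6 (1.79% of all genes), and 67 were higher in both, 47.9% of the T169A list and 40.9% of the 164 in B6 (1.25% of all genes). The sign in B6 was the same for 849 of the 853 and 844 of the 850.

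The difference of the 5z7 effect between T169A and B6 was tested directly as an interaction, and edgeR called 0 of 13068 genes (0%), with 151 at an unadjusted p under 0.05 and a smallest adjusted p of 0.999986; DESeq2 also called 0. An unadjusted p under 0.05 was thus rarer than the share of 0.05 expected without any difference. The edgeR test was therefore conservative, and 0 called genes does not show that the genotypes responded alike. Dusp1 changed by −4.03 ± 0.20 in T169A and −4.28 ± 0.20 in B6, a difference of 0.25 ± 0.25 (SE). The difference was 0.02 ± 0.31 for Il1a, 0.14 ± 0.27 for Il10, 0.04 ± 0.27 for Tnf, 0.26 ± 0.32 for Ptgs2, 0.01 ± 0.34 for Cxcl10 and 0.19 ± 0.14 for Txnip. Among the 1172 called genes that reached 10 CPM in either T169A group, the size of the difference had a median of 0.0563 on the log2 scale with a median SE of 0.16, and it was under 1 for 1171 of them. The exception was Ftl1-ps1, named as a copy of a ferritin gene, at 1.36 ± 0.89 (unadjusted p = 0.143), with 3.86, 25.6 and 2.82 CPM with LPS/5z7 in T169A, where library 15 was far above the other 2. Aox1, an aldehyde oxidase, had the second smallest unadjusted p of all genes and differed by −2.39 ± 0.57 (unadjusted p = 0.000657), with 0.303, 0.205 and 0.0612 CPM with LPS/5z7 and 0.817, 0.575 and 0.388 CPM with LPS in T169A, and Fjx1 differed by −1.48 ± 0.47 (unadjusted p = 0.00593). Neither passed the adjustment. Aox1 in LPS/5z7 library 18 was under that library's floor of 0.184 CPM, so the size of its difference is uncertain. Spry1, a relative of Spry2, stood at −1.95 ± 0.28 in T169A and −0.97 ± 0.27 in B6, at levels at or under 1.55 CPM. Its difference of −0.98 ± 0.40 (unadjusted p = 0.03) did not pass the adjustment either, and it was chosen after its values were seen.

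**Figure D5:**
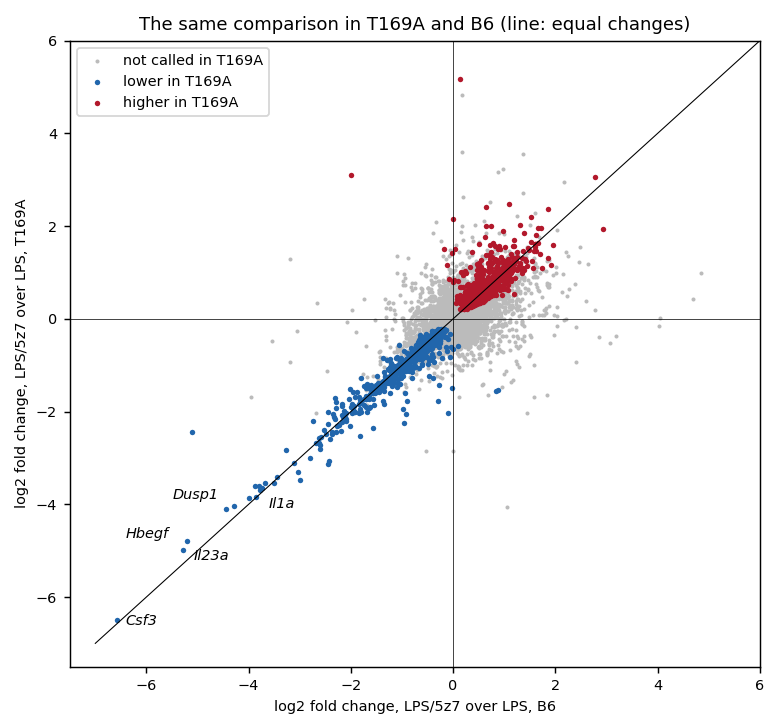
Log2 fold change of LPS/5z7 over LPS in T169A macrophages (vertical axis) against that in B6 macrophages (horizontal axis), 1 point per gene, coloured by the T169A call, with a line of equal change. Genes called lower lie along the line from Csf3 upward, and 721 of the 853 were also called lower in B6.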

How the data were processed

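RNA of mouse macrophages was sequenced in 18 libraries. Per the submitters' processing notes, the tools were Trim Galore, STAR and featureCounts and the build GRCm39; versions, strand setting and annotation release are not given in the sources used here. The deposited table holds raw counts per gene, made by the authors, and its columns carry a running number that names the libraries here. Counts were scaled by TMM and tested with edgeR 4.0.16 (R 4.3.3) by the quasi-likelihood F-test, robust, with 1 mean for each of 6 groups over all 18 libraries, after filterByExpr; a gene was called at a Benjamini-Hochberg adjusted p under 0.05 over all genes tested. Log2 fold changes are given ± SE. The fit was tested on simulated data. Symbols came from GENCODE M21 and promoters from RefSeq. Members, gene lists and tests were chosen with earlier results of these data known. The genes named were, for each direction, the 12 that changed most at 10 CPM or more, up to 6 called members and some members not called of each list, and others chosen after their values were seen; a few genes are not reported here. Alternatives were DESeq2 1.42.0, other scalings and filters, a fit on the groups alone, a replicate block and leaving out each library except the unstimulated B6 ones. Intervals of depth cover counting error only.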

Additional observations from a re-analysis of the deposited data

How the results depend on the processing

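The count of 1703 called genes went to 2707 when scaled by library size alone and is 385 with a minimum of 2-fold; leaving out 1 library gave 1009 to 1634, with falls past 1.5 times without LPS library 14 (1102), LPS/5z7 library 15 (1078) and LPS/5z7 library 18 (1009). Sample titles carry letters shared by the 3 treatments of a genotype, without saying what a letter marks, and the count table carries running numbers instead, so pairing was not established. With consecutive numbers taken as pairs, the correlation of deviations in T169A was 0.43, 0.069 and 0.212, and library 15 correlated better with 17 (0.143) than with 14; a replicate block of these numbers called 2340 genes, and 14 of the 40 antiviral genes lower, against 3 without it. The same pairing in B6 gave 0.0988, 0.0709 and 0.21, and B6 library 3 correlated better with 5 (0.124) than with 2. The test of the difference between genotypes called 0 genes under every alternative run. All 141 called genes named kept their direction under those of the 14 alternatives that tested them (Aox1 was not tested with a filter of 1 CPM or in a fit on the groups alone), and 121 kept their call; Aox1, C3, Ccl9, Cflar, Cxcl16, Fas, Ftl1-ps1, Ifi205, Ifi211, Jak2, Map2k3, Map3k8, Mx2, Myd88, Nfkb2, Stat3, Tnfrsf1a, Tnfsf10, Tnfsf14 and Zc3h12a lost it under at least 1. Of 39 named genes not called, 10 were called under at least 1. The log2 fold change of LPS/5z7 over LPS changed sign in some genes that were not called. Scaled by library size alone, it was 0.13 for Actb, 0.0997 for Aldoa, 0.054 for Casp8, 0.0248 for Ccl5, 0.0939 for Gadd45b, 0.13 for Gapdh, 0.0881 for Igf1, 0.097 for Il18, 0.15 for Lyz2, 0.0947 for Map3k7, 0.0154 for Mlkl, 0.0619 for Pkm, 0.13 for Ripk3, 0.10 for Spi1, 0.0153 for Spp1 and 0.0834 for Tnfsf12. With DESeq2 size factors in edgeR, it was −0.0192 for Casp4, −0.0198 for Cnot1 and −0.0182 for Csf1r. With the DESeq2 Wald test, it was −0.0193 for Casp4, −0.0193 for Cnot1 and −0.0183 for Csf1r. In a fit on the groups alone, it was −0.00695 for Casp4, −0.00567 for Cnot1 and −0.00589 for Csf1r. Without libraries 11 and 12 together, it was −0.00502 for Casp4 and 0.0204 for Tnfsf15. Leaving out 1 library at a time, it ran over −0.14 to 0.0408 for Actb, −0.10 to 0.0954 for Casp4, −0.12 to 0.19 for Cnot1, −0.0232 to 0.0537 for Csf1r, −0.0136 to 0.064 for Dusp3, −0.0283 to 0.22 for Ebi3, −0.15 to 0.0138 for Gadd45b, −0.066 to 0.0323 for Gapdh, −0.12 to 0.000252 for Il18, −0.076 to 0.0467 for Lyz2, −0.13 to 0.00208 for Map3k7, −0.39 to 0.0508 for Mlkl, −0.15 to 0.0809 for Ripk3, −0.14 to 0.0432 for Spi1 and −0.42 to 0.24 for Tnfsf15. The causes were not tested. Genes under the floor of 3 counts, such as Csf3 with LPS/5z7, have no usable fold change.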
